A study of Mus musculus with 4 samples.

Results

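Cyclic nucleotide phosphodiesterases (PDEs) are the enzymes that break down the second messengers cAMP and cGMP. In CD4+ T cells of the mouse spleen, transcripts of 9 PDE genes were measured by RNA-seq, the genes being chosen by name as *Pde3b*, *Pde3a*, *Pde2a*, *Pde1b*, *Pde4a*, *Pde4b*, *Pde4d*, *Pde7a* and *Pde8a*. All 9 were found among the 55367 gene symbols of the count tables, and 6 of them had enough counts to be tested, beside 12403 genes tested in all. *Pde3b* is known as a gene repressed by FoxP3, the transcription factor that defines regulatory T (Treg) cells.

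The libraries came from peripheral CD4+ T cells of the spleen of C57BL/6 mice. The labels name 2 of them wild type (WT) and the other 2 conditional knockout (cKO) for *Satb1*, whose product shapes chromatin in the T cell nucleus. In the cKO mice a floxed *Satb1* gene is removed by Cre under *Thpok* control, which acts in the whole CD4 lineage from lineage commitment on, Treg cells included. Of the controls the labels say only that they are WT. The labels give no age, and the mice used in the study were young adults of mixed sexes. The study calls the duplicates biological replicates, but the labels do not say that each came from a different mouse, so p-values measure the spread between these libraries.

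cAMP made by adenylyl cyclases activates protein kinase A (PKA) and the exchange factors EPAC1 and EPAC2, and in T cells it dampens activation through the antigen receptor. Treg cells are known for high cAMP, which they can pass to the cells they suppress. Each PDE family reads other signals: PDE1 enzymes are switched on by calcium and calmodulin, PDE2A is stimulated by cGMP, PDE3 enzymes are inhibited by cGMP, and PDE4, PDE7 and PDE8 enzymes are specific for cAMP.

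The total gene count lay between 4495902 and 6555699 per library. *Satb1* itself had 5677 and 4390 counts in WT and 4958 and 3986 in cKO, a log2 fold change of -0.05 (edgeR quasi-likelihood adjusted p = 0.877), so the gene-level count does not tell the genotypes apart and directions below follow the labels. *Xist* had 5447 and 4235 counts in WT and 9 and 6 in cKO, while the Y-linked *Ddx3y* had 0 and 0 against 525 and 597. The sex of the mice and the genotype can thus not be told apart in any comparison below, although none of the 9 PDE genes lies on X or Y. The CD4 T cell marker *Cd4* was at 1178 to 1274 CPM (counts scaled to the TMM-adjusted depth of each library) in all 4 libraries.

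A promoter window is shown for *Pde8a* and *Pde1b*, those of the 9 PDE genes that were tested and had a negative log2 fold change of cKO over WT. Windows reach from 250 bases before to 50 bases after a RefSeq start site on GRCm38.p6, the assembly that mm10 stands for. That of *Pde8a* is chr7:81213015-81213314 on the plus strand, and that of the first *Pde1b* start is chr15:103502784-103503083 on the plus strand. The *Pde8a* gene model used for lengths and positions below starts at 81213596, past the end of this window, so distances here refer to the RefSeq start alone. Capitals mark TGACG, the core of the cAMP response element that CREB binds, searched on both strands.
Pde8a: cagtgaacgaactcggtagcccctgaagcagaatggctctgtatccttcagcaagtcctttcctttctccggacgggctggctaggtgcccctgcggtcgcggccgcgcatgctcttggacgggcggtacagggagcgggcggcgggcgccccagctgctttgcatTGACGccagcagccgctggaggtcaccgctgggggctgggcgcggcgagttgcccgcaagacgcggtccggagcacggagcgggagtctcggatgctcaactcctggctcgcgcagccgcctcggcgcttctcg
Pde1b: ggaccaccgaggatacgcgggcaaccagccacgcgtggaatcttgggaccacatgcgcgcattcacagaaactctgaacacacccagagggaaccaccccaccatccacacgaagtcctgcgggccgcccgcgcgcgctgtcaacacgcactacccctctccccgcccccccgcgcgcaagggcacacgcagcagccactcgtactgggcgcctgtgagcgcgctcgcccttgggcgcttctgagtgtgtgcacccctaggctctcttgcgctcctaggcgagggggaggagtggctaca
The *Pde8a* window holds 1 such core, whose first base is 84 bases before the start site, and neither window shown holds the full palindrome TGACGTCA. The core is not particular to *Pde8a*. Among the windows not shown, it also lies in a window of *Pde4b*, of *Pde4a* and of *Pde2a*, and not in those of *Pde4d* and *Pde1b*. Of 32851 mouse promoter windows of 300 bases, 20.8% hold the core, which also lies within the palindrome, and 1.79% hold the palindrome. The *Pde8a* and *Pde1b* windows shown are GC-rich, at 68.7% and 67.0%. Of the 9 genes, 6 had a window in the table used, and *Pde3b*, *Pde7a* and *Pde3a* had none.

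Among the 9 PDE genes *Pde3b* was the most abundant per length, and *Pde8a* was the only one of the 6 tested that was called lower in cKO. Levels of different genes were set side by side as TPM, in which counts are divided by the exonic length of the gene and scaled to the same sum in each library. In the WT libraries *Pde3b* stood at 84.8 ± 0.877 TPM (SD, n = 2). *Pde7a* followed with 44.0 ± 0.0719 TPM (SD, n = 2) and *Pde4b* with 37.2 ± 3.16 TPM (SD, n = 2). Below them came *Pde8a* with 24.8 ± 4.10 TPM, *Pde4d* with 23.3 ± 0.807 TPM and *Pde1b* with 19.5 ± 0.834 TPM (SD, n = 2 each). *Pde8a* and *Pde4d* changed places between the WT libraries, so their order is within the spread.

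In the cKO libraries the order at the top was kept, with *Pde3b* at 110.2 ± 16.8 TPM, *Pde7a* at 59.9 ± 5.13 TPM, *Pde4b* at 40.5 ± 2.11 TPM and *Pde4d* at 30.2 ± 0.139 TPM (SD, n = 2 each). *Pde1b* had 12.9 ± 2.20 TPM and *Pde8a* 10.5 ± 1.66 TPM (SD, n = 2 each). Their ranges overlap, since *Pde1b* had 11.3 TPM in cKO 1 and *Pde8a* 11.7 TPM in cKO 2. The place of *Pde3b* at the top held in each of the 4 libraries, also when the longest transcript of each gene was used as its length. With that length *Pde4b* and *Pde4d* ranked above *Pde7a* in each library. The order below *Pde3b* therefore depends on the length used.

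The make-up of PDE transcripts was computed over 21 genes, the 9 above and 12 other PDE genes. *Pde3b* took 34.7% of the summed TPM in each WT library, 38.1% in cKO 1 and 41.3% in cKO 2. *Pde7a* took 18.2% and 17.9% in WT against 21.8% and 21.5% in cKO. *Pde8a* took 11.4% and 8.89% against 3.61% and 3.95%, and *Pde1b* took 7.79% and 8.16% against 4.39% and 4.88%. The shares of these 4 genes, and that of *Pde4d* with 9.38% and 9.71% against 11.7% and 10.2%, did not overlap between genotypes, whereas the share of *Pde4b*, at 14.4% and 16.0% against 15.1% and 14.2%, did. Together the 9 genes made up 95.1% to 96.5% of the summed level, and the sum over all 21 was 242 and 246 TPM in WT and 258 and 296 TPM in cKO. A share falls when other members rise, so these values describe proportions and were not tested. In CPM, the libraries of the genotypes did not overlap for 50.3% of all tested genes.

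**Figure D1:**
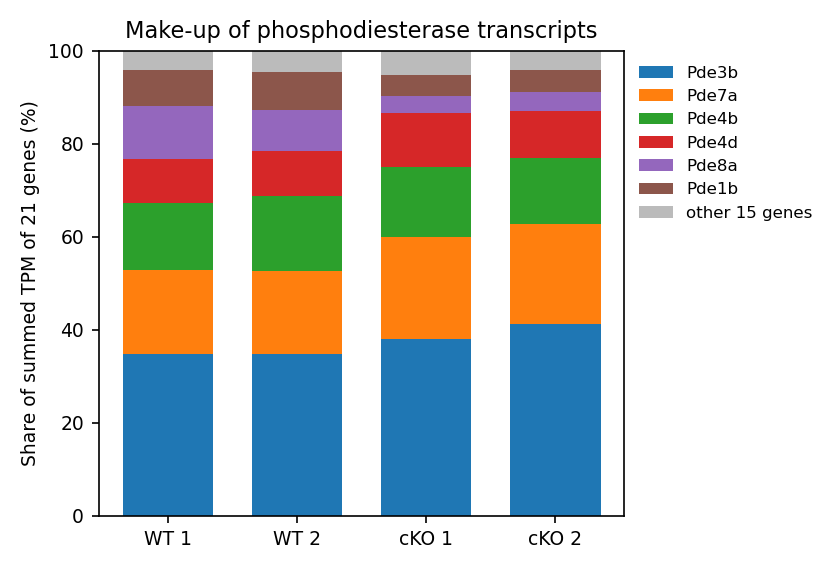
Stacked bars give the share of each gene in the summed TPM of 21 PDE genes, in percent, for each of the 4 libraries, with 15 minor genes pooled in grey. The *Pde8a* segment shrinks from 11.4% and 8.89% in WT to 3.61% and 3.95% in cKO, while *Pde3b* is the tallest segment in all of them.

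Differences between genotypes were then tested gene by gene with the edgeR quasi-likelihood test, adjusted over all 12403 tested genes. *Pde8a* was the only one of the 6 tested PDE genes with an adjusted p under 0.05, and it was lower in cKO. Over all tested genes 4.30% passed in either direction, 1.95% as lower and 2.35% as higher in cKO. Libraries of the genotypes did not overlap for 5 of the 6 tested PDE genes, beside 50.3% of all tested genes. The same 5 had an unadjusted p under 0.05, beside 19.1% of all tested genes. In 3 of these 5, *Pde3b*, *Pde7a* and *Pde4d*, the cKO libraries were above WT, and in *Pde1b* and *Pde8a* they were below it.

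*Pde3b* (chromosome 7, 114415281 to 114539251, plus strand, GRCm38) encodes a cGMP-inhibited enzyme that also answers to insulin through AKT. It had 1453 and 1021 counts in WT and 1378 and 1414 in cKO, or 221 and 228 CPM against 261 and 299 CPM. Both cKO libraries lay above both WT libraries. On the log2 scale cKO exceeded WT by 0.32 (SE 0.10), a fold of 1.06 to 1.47 by its 95% interval, with edgeR adjusted p = 0.135. The difference did not pass after adjustment, although its unadjusted p was 0.0135. In DESeq2 its adjusted p was 0.291. Without cKO 1 the log2 value was 0.42, and without cKO 2 it was 0.22. A fit without a cKO library takes its spread from the WT pair alone, here and below.

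*Foxp3*, the gene of the repressor, had 141 and 120 CPM in WT and 404 and 545 CPM in cKO. Its log2 fold change was 1.86 (edgeR adjusted p = 0.000447). The gene is X-linked, and part of its exons overlaps other genes on either strand. Within cKO the library with more *Foxp3*, cKO 2, also had more *Pde3b*, while the WT libraries were close in *Pde3b*, at 221 and 228 CPM. These are comparisons of single libraries, and a relation between *Foxp3* and *Pde3b* was not tested. *Lef1*, a transcription factor of naive T cells that the study names beside *Pde3b* as repressed by FoxP3, had 1122 and 1188 CPM against 1073 and 773 CPM, with a log2 fold change of -0.32 (edgeR adjusted p = 0.315). The fitted values of *Lef1* and *Pde3b* thus had opposite signs, and neither passed. *Lef1* passed when cKO 1 was left out, at -0.58 with adjusted p = 0.000827, and without the low-count filter (adjusted p = 0.0316), while without cKO 2 its value was -0.10 (adjusted p = 0.497). In bulk libraries, fewer cells of a type and less RNA per cell cannot be told apart.

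*Pde3a*, the other PDE3 gene, is known from heart, platelets and oocytes. It had 0 counts in all 4 libraries, which allows up to 3 counts, or 0.457 to 0.669 CPM by library. The PDE3 transcripts detected here were therefore those of *Pde3b*.

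Of the cAMP-specific PDE4 genes, which encode the targets of rolipram, *Pde4b* and *Pde4d* were detected at high counts and *Pde4a* was near the floor. *Pde4b* (chromosome 4, 102087543 to 102607259) had 106 and 122 CPM in WT and 120 and 119 CPM in cKO. The libraries overlapped, the fitted log2 difference was 0.07 (SE 0.11, edgeR adjusted p = 0.774), and the interval of the fold was 0.89 to 1.25. *Pde4d* (chromosome 13, 108449948 to 109953461) had 78.7 and 83.9 CPM against 106 and 97.1 CPM. Its fitted log2 difference was 0.32 (SE 0.11), and both cKO libraries were above WT, but the edgeR adjusted p of 0.148 did not pass. Without cKO 2 it did, at 0.39 with adjusted p = 0.0271.

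*Pde4a* (chromosome 9, 21165714 to 21213248) had 4 and 8 counts in WT and 6 and 5 in cKO. At 0.609 to 1.78 CPM it was below the low-count filter, and no difference was detectable at this depth.

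*Pde7a* encodes a cAMP-specific enzyme insensitive to rolipram that is known from T cells. On chromosome 3 (19223108 to 19311322, minus strand), it had 98.5 and 99.7 CPM in WT and 127 and 132 CPM in cKO. Both cKO libraries were above both WT libraries. The SDs were 0.839 CPM in WT and 3.66 CPM in cKO (n = 2 each), and an SD of 2 libraries is itself uncertain. Fitted at 0.39 (SE 0.10) on the log2 scale, the difference was a fold between 1.12 and 1.53, and edgeR adjusted p = 0.0680. In DESeq2 the same difference had an adjusted p of 0.208. It passed without cKO 1 (0.42, adjusted p = 0.0207), without cKO 2 (0.36, adjusted p = 0.0239), with the replicate block (0.39, adjusted p = 0.0265) and in the edgeR likelihood ratio test (adjusted p = 0.0336). It did not pass without either WT library, and the adjusted p ran from 0.0207 to 0.421 over the alternatives. Its exons share 48 bases with *Gm16093* on the opposite strand.

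*Pde8a* (chromosome 7, 81213596 to 81334533, plus strand) encodes a cAMP-specific enzyme of very high affinity that is insensitive to the common inhibitor IBMX and has been linked to adhesion and migration of effector T cells. It had 212 and 116 counts in WT and 58 and 60 in cKO, or 32.3 and 25.9 CPM against 11.0 and 12.7 CPM. Even the lower WT library was well above both cKO libraries. *Pde8a* fell by 1.31 on the log2 scale, with an SE of 0.19 and edgeR adjusted p = 0.00880, and the interval of the fold was 0.30 to 0.55. It passed in each of 12 alternatives, with a log2 fold change between -1.45 and -1.12 and an adjusted p from 9.77e-09 to 0.0184. The gene overlaps no other annotated exon on either strand.

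Within a library, the level of *Pde3b* per length was 3.04 and 3.91 times that of *Pde8a* in WT 1 and WT 2. In cKO 1 and cKO 2 it was 10.5 and 10.5 times that of *Pde8a*. The transcript ratio was thus higher in both cKO libraries, and it does not depend on how libraries are scaled.

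*Pde1b* (chromosome 15, 103503034 to 103530052, plus strand) encodes a calcium- and calmodulin-dependent enzyme that degrades cAMP and cGMP. It had 193 and 142 counts in WT and 94 and 99 in cKO, or 29.4 and 31.7 CPM against 17.8 and 20.95 CPM. Both cKO libraries were below both WT libraries. Fitted at -0.65 (SE 0.16) on the log2 scale, the difference had an edgeR adjusted p of 0.0606, just short of the threshold. It passed with the replicate block (-0.66, adjusted p = 0.0181), without cKO 2 (-0.77, adjusted p = 0.00839), without the low-count filter (adjusted p = 0.0101) and in the edgeR likelihood ratio test (adjusted p = 0.00943). It did not pass in DESeq2, where the adjusted p was 0.246, and without WT 2 it was 0.375, the highest of the range.

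*Pde2a*, on chromosome 7 (101421691 to 101512827), encodes the cGMP-stimulated enzyme. It had 12 and 7 counts in WT and 5 and 0 in cKO, or 1.83 and 1.56 CPM against 0.949 and 0 CPM. The cKO libraries were lower, but the counts were below the low-count filter. In the alternatives with no filter and with 1 CPM in 2 libraries as the filter, *Pde2a* and *Pde4a* were tested and neither was called. Of its 6149 exonic bases, 3955 are shared with *Gm45837* on the same strand, a gene with 0 counts in each library. Both genes have a row in the count tables, and HTSeq by default assigns a read that falls on 2 genes to neither, so *Pde2a* can be undercounted.

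**Figure D2:**
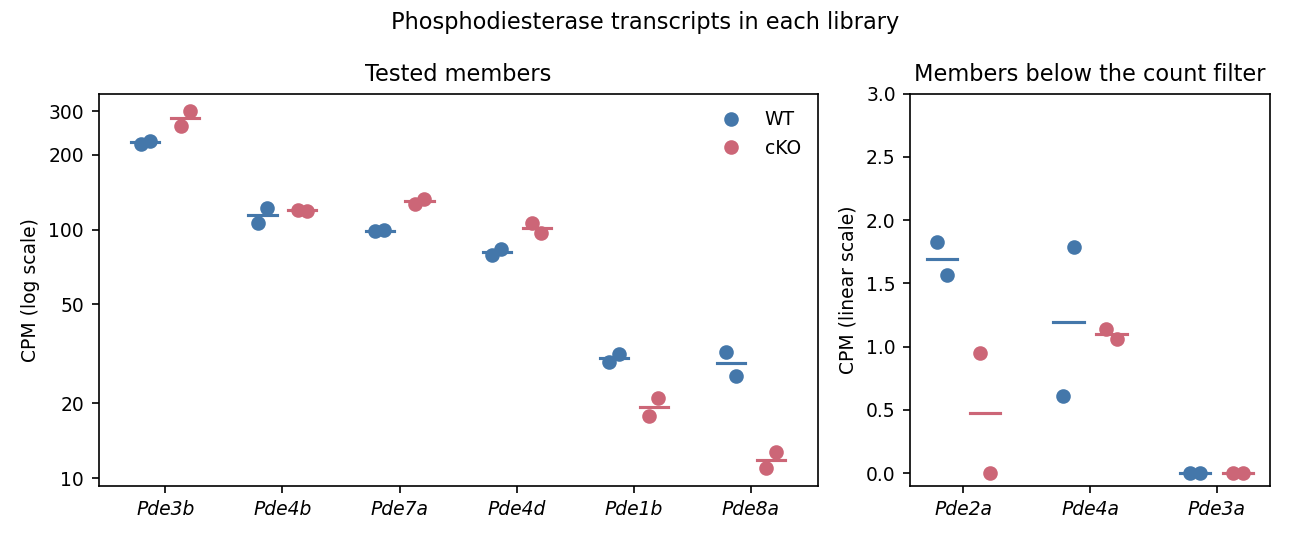
Each point is the CPM of a gene in 1 library (WT blue, cKO red) and each short line is the mean of 2 libraries, on a log axis for the 6 tested PDE genes and on a linear axis for the 3 below the count filter. *Pde8a* and *Pde1b* lie lower in both cKO libraries, *Pde3b*, *Pde7a* and *Pde4d* higher, and *Pde3a* is at 0 throughout.

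**Figure D3:**
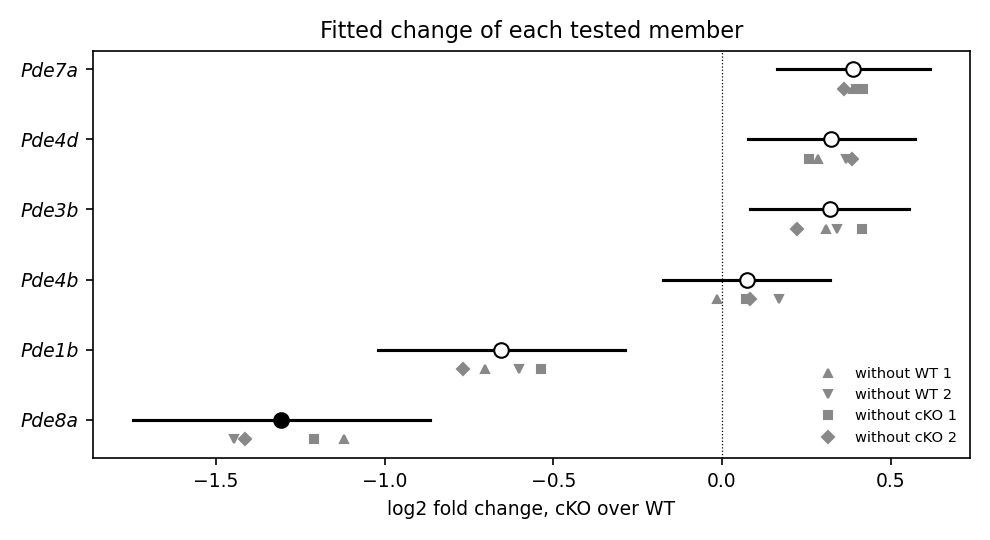
Circles give the fitted log2 fold change of cKO over WT for each tested PDE gene with its 95% interval, filled where the edgeR adjusted p is under 0.05, and grey symbols give the value when the named library is left out. *Pde8a*, at -1.31, is the filled one, and *Pde4b* is the only gene whose value changes sign, to -0.02 without WT 1.

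Some markers of other cells differed between the genotypes and others did not, and they are given here beside the fall of *Pde8a*. Of 3 CD8 T cell markers tested, *Cd8b1* and *Eomes* fell, beside 1.95% of all tested genes called lower. The summed level of the list was 87.1 and 90.4 CPM in WT against 45.2 and 43.6 CPM in cKO. *Cd8b1* encodes the CD8 beta chain and *Eomes* a transcription factor of cytotoxic and memory cells, and their log2 fold changes were -0.91 (edgeR adjusted p = 0.0201) and -1.38 (adjusted p = 0.0113). *Cd8b1* did not pass without WT 2 (-0.76, adjusted p = 0.163). *Cd8a*, the defining CD8 gene, had 5.33 and 6.47 CPM against 6.83 and 4.23 CPM and did not differ (-0.07, edgeR adjusted p = 0.941). Whether cells of another type had a part in the result for *Pde8a* was not tested.

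B cell markers, 8 in all, summed to 14.0 and 15.2 CPM in WT, 57.3 CPM in cKO 1 and 23.5 CPM in cKO 2. Of these 3 were tested and 1, *Pax5*, rose (3.001, edgeR adjusted p = 0.0407), although it did not pass without cKO 1 (1.93, adjusted p = 0.0704) or without WT 2 (3.10, adjusted p = 0.12), and without cKO 2 its value was 3.59. The 9 myeloid markers summed to 29.9 and 37.0 CPM against 108 and 63.7 CPM, and 4 of the 8 tested rose, *Lyz2*, *Cybb*, *S100a9* and *Ltf*. Of all tested genes 2.35% were called higher, which stands beside the B cell and the myeloid list. *Cybb* did not pass without WT 1 (edgeR adjusted p = 0.118) or without WT 2 (adjusted p = 0.115), and not in DESeq2 (adjusted p = 0.0636). The 4 NK cell markers summed to between 0.635 and 3.96 CPM, with *Klra8* at 0, and the 5 platelet markers to between 1.56 and 4.93 CPM, with *Gp1bb* at 0. The sums for B and myeloid cells were highest in cKO 1. Their part in the PDE results was not tested.

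Of 7 Treg markers tested, *Foxp3*, *Ctla4*, *Nrp1* and *Tnfrsf18* were called higher, beside 2.35% of all tested genes. The summed level of the Treg markers was 477 and 403 CPM in WT against 860 and 1081 CPM in cKO. *Ctla4* (adjusted p = 0.371), *Nrp1* (0.166) and *Tnfrsf18* (0.114) did not pass without WT 2, and *Nrp1* (0.0572) and *Tnfrsf18* (0.126) did not pass without WT 1 in the same edgeR test. In DESeq2 *Nrp1* did not pass (adjusted p = 0.0607). *Zbtb7b*, the gene of the CD4 lineage factor ThPOK, was the 1 of 8 CD4 T cell markers to be called, higher by 0.66 (edgeR adjusted p = 0.0117), and it did not pass without WT 2 (adjusted p = 0.222).

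The 12 other PDE genes were scarce. *Pde11a*, at 3.98 to 8.70 CPM, had the highest average log2 CPM, although *Pde5a* was above it in cKO 1, and 4 of the 12 (*Pde1a*, *Pde6a*, *Pde6c* and *Pde10a*) had 0 counts in every library. Of the 3 tested, none passed in the edgeR quasi-likelihood test, and, beside 19.1% of all tested genes, 1 had an unadjusted p under 0.05. That gene, *Pde5a*, which encodes the cGMP-specific target of sildenafil, had 11 and 4 counts in WT but 98 in cKO 1 and 18 in cKO 2, with a log2 fold change of 3.06 and edgeR adjusted p = 0.0606. Both cKO libraries were above both WT libraries, and the level was highest in cKO 1, the library with the highest B cell and myeloid marker sums, whose part in it was not tested. *Pde6h*, a photoreceptor subunit gene, showed 223 to 265 CPM, but 136 of its exonic bases overlap *Arhgdib* on the opposite strand, a gene with 5248 to 8493 counts. Whether counting used the strand is not stated, and the part of this overlap in the *Pde6h* counts was not tested. *Pde6h* encodes an inhibitory subunit and is not among the 21 PDE genes of the shares above.

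The wider cAMP pathway was described through 12 lists that hold 113 genes found in the tables, the other PDE genes included, of which 69 were tested. Of these, 3 were called, *Adcy6* and *Rapgef4* lower and *Pik3r1* higher, or 4.35%, next to 4.30% of all tested genes. The median log2 fold change over the 69 was 0.15, next to -0.0015 over all tested genes. *Pde5a*, *Pde4dip*, *Per1*, *Sik1* and *Irs2* were also called with the edgeR likelihood ratio test, with the replicate block and without the low-count filter. *Pde5a* was called without WT 1 as well, *Sik1* and *Akap9* without cKO 1, and *Adora2a* without the filter. In each list the gene with the highest average log2 CPM is named below, which is not an order per length. The share called is close to that of the background and says nothing particular of the pathway. An unadjusted p under 0.05 in edgeR was found for 20 of the 69, beside 19.1% of all tested genes.

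On the side of synthesis, 4 of 10 adenylyl cyclase genes were tested. In edgeR 2 of them had an unadjusted p under 0.05, beside 19.1% of all tested genes. *Adcy7* had 292 and 354 CPM against 355 and 344 CPM and did not pass (0.12, edgeR adjusted p = 0.642). *Adcy6*, which encodes a calcium-inhibited cyclase, had 95.9 and 104 CPM in WT and 61.7 and 62.9 CPM in cKO. It fell by 0.68 on the log2 scale with an SE of 0.11 (edgeR adjusted p = 0.0117), and without WT 2 it did not pass (-0.62, adjusted p = 0.141). Its exons share 605 bases with *Gm29331* on the opposite strand.

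Among receptors that raise cAMP, 6 of 9 were tested and none was called in edgeR. An unadjusted p under 0.05 was found for 2 of them, beside 19.1% of all tested genes. *Vipr1*, the receptor for vasoactive intestinal peptide, had 284 and 285 CPM against 264 and 167 CPM, with a log2 fold change of -0.40 (adjusted p = 0.275). It passed without cKO 1, at -0.77 with edgeR adjusted p = 0.000144, without the low-count filter (adjusted p = 0.0102) and with the replicate block (adjusted p = 0.0396). Without cKO 2 its value was -0.11 (edgeR adjusted p = 0.432). Of 4 tested G protein alpha subunit genes none was called or had an unadjusted p under 0.05 in edgeR, and *Gnai2*, of the inhibitory class, had 851 to 974 CPM.

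Of the effectors, *Rapgef4*, which encodes the exchange factor EPAC2, had 53.9 and 64.0 CPM in WT against 36.4 and 33.9 CPM in cKO. It fell by 0.74 on the log2 scale with an SE of 0.14 (edgeR adjusted p = 0.0219), and without WT 2 it did not pass (-0.62, adjusted p = 0.235). It shares 337 exonic bases with *Rapgef4os2* on the opposite strand. None of 6 tested genes of PKA subunits and inhibitors and none of 9 tested PKA anchoring genes was called, and none had an unadjusted p under 0.05 in edgeR. *Prkar1a*, a regulatory subunit gene, had 474 and 462 CPM in WT and 533 and 518 CPM in cKO (0.17, adjusted p = 0.406), and the anchoring gene *Akap13* had 938 to 1040 CPM. Of the guanylyl cyclases 1 was tested, *Gucy1a1*, at 2.28 to 6.69 CPM (adjusted p = 0.796), and the transporter gene *Abcc5*, at 52.7 to 74.3 CPM, did not pass (adjusted p = 0.593).

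Downstream, all 7 genes of the CREB family and its coactivators were tested, and none was called in edgeR. Of these, 4 had an unadjusted p under 0.05, beside 19.1% of all tested genes. *Crebbp*, the coactivator CBP, had 356 and 348 CPM against 465 and 434 CPM, a log2 difference of 0.35 whose adjusted p was 0.0904. It passed without cKO 1 (adjusted p = 0.0249), without cKO 2 (adjusted p = 0.00148), without the low-count filter (adjusted p = 0.0343) and in the edgeR likelihood ratio test (adjusted p = 0.0375). Of 7 tested CREB target genes none was called in the edgeR quasi-likelihood test, 3 with a positive and 4 with a negative fitted value. An unadjusted p under 0.05 was found for 3 of them, beside 19.1% of all tested genes. *Nr4a1* had 153 and 112 CPM against 124 and 123 CPM (-0.11, edgeR adjusted p = 0.750).

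The insulin and AKT pathway acts on the PDE3B protein, and 11 of its 12 listed genes were tested. In edgeR 5 of them had an unadjusted p under 0.05, beside 19.1% of all tested genes. *Pik3r1*, which encodes the regulatory subunit p85 alpha of PI3 kinase, rose from 293 and 280 CPM in WT to 466 and 374 CPM in cKO, with a log2 fold change of 0.55, an SE of 0.12 and edgeR adjusted p = 0.0423. It did not pass without WT 1 (0.59, adjusted p = 0.0799) or without WT 2 (0.52, adjusted p = 0.367). The others did not pass, and *Pik3cd* had 705 to 836 CPM (adjusted p = 0.636). Of the PDE-associated proteins 6 of 7 were tested besides, none of which was called in the edgeR quasi-likelihood test. An unadjusted p under 0.05 was found for 2 of them, beside 19.1% of all tested genes. *Arrb2*, a beta-arrestin that brings PDE4 to receptors, had 239 to 321 CPM (0.19, edgeR adjusted p = 0.468). It passed without cKO 2 (0.34, adjusted p = 0.00989), and without cKO 1 its value was 0.014 (adjusted p = 0.942).

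**Figure D4:**
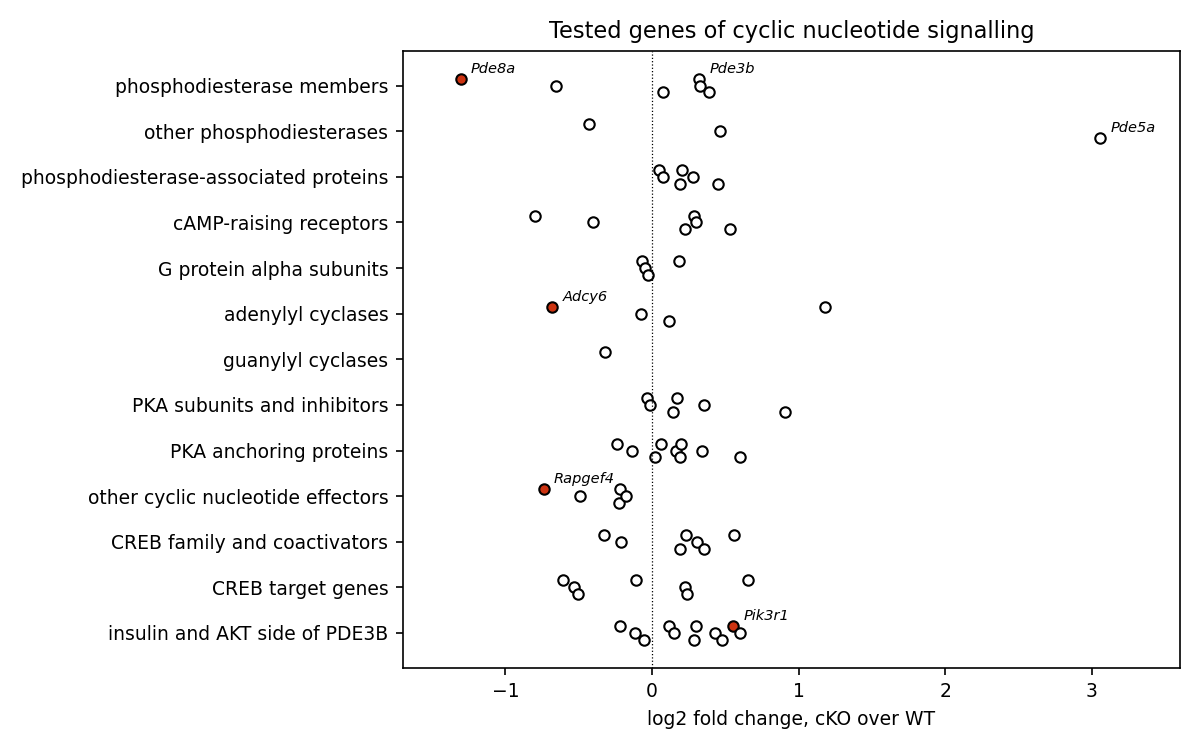
Each circle is the fitted log2 fold change of cKO over WT for 1 tested gene, in rows by list, red where the edgeR adjusted p is under 0.05. Red circles are *Pde8a*, *Adcy6* and *Rapgef4* to the left and *Pik3r1* to the right, and the circle farthest right is *Pde5a* at 3.06, which did not pass.

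The genes whose pattern over the 4 libraries was most like that of *Pde3b* were *Klf6*, *Ythdc1* and *Xpr1*. Likeness was the Euclidean distance between log2 CPM values centred on each gene's mean, which was 0.0302, 0.0380 and 0.0430 for them, among 9699 other genes with an average log2 CPM of at least 3. *Klf6*, a zinc finger transcription factor, had 155 and 160 CPM in WT and 182 and 214 CPM in cKO. With 4 libraries many genes can lie this close, and the likeness is a description.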

How the data were processed

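The authors aligned 50 bp reads to mm10 with HISAT2 2.1.0 and deposited raw HTSeq counts per gene symbol. The annotation and strand setting are not given in the sources used here. HTSeq summary lines, 66.8% to 70.5% of each table, were left out. Reads outside features took 59.4% to 64.5% of the reads listed under genes, no feature or ambiguous.

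Counts were tested with the edgeR 4.0.16 quasi-likelihood test in R 4.3.3 (TMM, filterByExpr, genotype label as the only term, two-sided), with Benjamini-Hochberg adjustment across every tested gene, and called at an adjusted p under 0.05. The SE is the absolute log2 fold change over the square root of F, and 95% intervals use the moderated degrees of freedom. Counting error and the spread between libraries are covered, but reads are not independent molecules. With 2 libraries against 2, an exact permutation test of a single gene cannot go below 0.333. Lengths, positions and overlaps came from GENCODE M21 on GRCm38, which matched 53365 of 55367 symbols. Figures were drawn with matplotlib 3.10.9.

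The PDE genes and the lists were chosen with earlier results of these data known. *Akap2*, *Gucy1a3* and *Gucy1b3* had no matching symbol. The genes named are the 9 PDE genes, the called genes and the gene of highest average log2 CPM in each pathway list, called marker genes, *Satb1*, *Foxp3*, *Lef1* and the 3 genes most like *Pde3b*. *Cd4*, *Cd8a*, *Pde5a*, *Pde6h*, *Arhgdib*, *Xist*, *Ddx3y*, pathway genes called only in alternatives and genes at 0 or overlapping were named after their values were seen. Alternatives were RLE factors, total counts, no filter, 1 CPM in 2 libraries, DESeq2 1.42.0, the edgeR likelihood ratio test, a replicate block, autosomes alone and leaving out each library. The fit was tested on simulated data.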

Additional observations from a re-analysis of the deposited data

How the results depend on the processing

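Without a low-count filter 1367 genes were called in place of 533, with the likelihood ratio test 1096, and with the replicate block 1165. Leaving out a library gave 174 (without WT 2) to 1583 (without cKO 2), 514 without WT 1 and 1313 without cKO 1. Of the tested PDE genes 2 were called without the filter, 3 with the likelihood ratio test and 3 with the replicate block, and 1 to 4 when a library was left out, in place of 1. In the pathway lists the counts were 11, 9 and 10, and 0 to 16 when a library was left out, in place of 3. The cause was not tested, except that fits without a cKO library take their spread from the WT pair alone, the lone library being assumed to vary like it, and the reverse.

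Same-numbered libraries share only a number, and the differences within the genotypes correlated by 0.0688 across 9709 genes. *Pde8a* passed in all 12 alternatives, and with the replicate block *Pde1b* and *Pde7a* passed too. Signs turned only where a library was left out. The ranges were -0.016 to 0.17 for *Pde4b*, -0.13 to 0.045 for *Satb1*, -0.16 to 0.012 for *Gnai2*, -0.010 to 0.26 for *Adcy7*, -0.96 to 0.57 for *Gucy1a1* and -0.31 to 0.15 for *Nr4a1*. Of 418 values over 35 named genes, 374 kept direction and side of the threshold, 17 lost and 20 gained a call, and 7 turned sign.

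With the longest transcript as length, *Pde3b* had 91.2 TPM in WT in place of 84.8, and its share was 29.7% (WT) and 33.3% (cKO) in place of 34.7% and 39.7%. At 58 to 212 counts for *Pde8a* and 0 to 12 for *Pde2a*, *Pde3a* and *Pde4a*, depth limits the latter most.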
